A study of Mus musculus with 6 samples.

Results

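The genes described here are 10 that make and load microRNAs in the mouse: Drosha, Dgcr8, Xpo5, Dicer1, Tarbp2, Prkra, Ago1, Ago2, Ago3 and Ago4. They were chosen by name as the machinery that processes microRNAs and short hairpins, and all 10 are among the 42396 genes of the count tables. RNA was sequenced from primary cultures of the ventral midbrain of wild-type mouse embryos at embryonic day 14. All cells were infected with a lentivirus on the day of plating, at a multiplicity of 5, and harvested after 3 days in vitro. In 3 control libraries the virus was pll3.7-Scr2, which carries a scramble hairpin, and in 3 knockdown libraries it was pll3.7-shRmstI, which carries a hairpin against circRmst, a circular RNA of the gene Rmst. Both groups thus express a short hairpin, and no group of uninfected cells was analysed here, so the comparison is between 2 hairpins and not between cells with and without one.

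MicroRNAs are cut from long primary transcripts in the nucleus by the Microprocessor, which consists of the nuclease Drosha and its RNA-binding partner Dgcr8. The hairpin that results is carried to the cytoplasm by exportin-5, the product of Xpo5, and cut again by the nuclease Dicer with its double-stranded RNA-binding partners, the products of Tarbp2 (Trbp) and Prkra (Pact). One strand is then loaded into an Argonaute protein, which uses it to find target messenger RNAs. Hairpins expressed from an RNA polymerase III promoter, as in vectors of the pLL3.7 type, enter this route after the Microprocessor step and use exportin-5, Dicer and Argonaute. In dopamine neurons, loss of Dicer in mice is known to impair their differentiation and survival. What was measured here is messenger RNA of the machinery, not mature microRNAs, which were not analysed here.

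The libraries held between 27248934 and 43646521 counts assigned to genes. The cultures are labelled as dopamine neurons, and all 10 markers of these neurons had counts in every library, with a summed level of 519 to 635 CPM (counts-per-million, scaled by TMM). The same libraries held markers of other cells, at 1256 to 1618 CPM for 6 genes of astrocytes and radial glia and 580 to 720 for 3 GABAergic genes. The values below are therefore averages over a mixed culture. Rmst itself was at 97.1 to 115 CPM in the knockdown and 115 to 124 in the control, and these counts add its linear and circular RNAs, so they do not check the knockdown.

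None of the 10 genes differed between the knockdown and the control at an adjusted p under 0.05. In edgeR's quasi-likelihood test, fitted on all 17439 genes with sufficient counts, 9 of the 10 could be tested and 0 passed in either direction. Over all genes tested, 0% passed. At an unadjusted p under 0.05 there were 0 of the 9 and 1.1% of all genes. DESeq2 and limma voom also called 0 of the 9, where they called 0.00351% and 0% of all genes. At an unadjusted p under 0.05 there were again 0 of the 9 in either tool, where DESeq2 had 0.615% and limma voom 1.1% of all genes. Of the 9 genes, 7 lay below the control and 2 above, where 51.9% of all genes lay below, and their median log2 fold change (knockdown minus control) was -0.036 against -0.0060 over all genes.

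The data limit how large a change could have gone unseen in these 9 genes. Their 95% intervals reached from -0.41 at the lowest to 0.40 at the highest on the log2 scale, and all 9 stayed inside a 1.5-fold change either way. Such intervals were common at this level of expression, with 95.7% of all genes of at least 10 CPM.

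**Figure D1:**
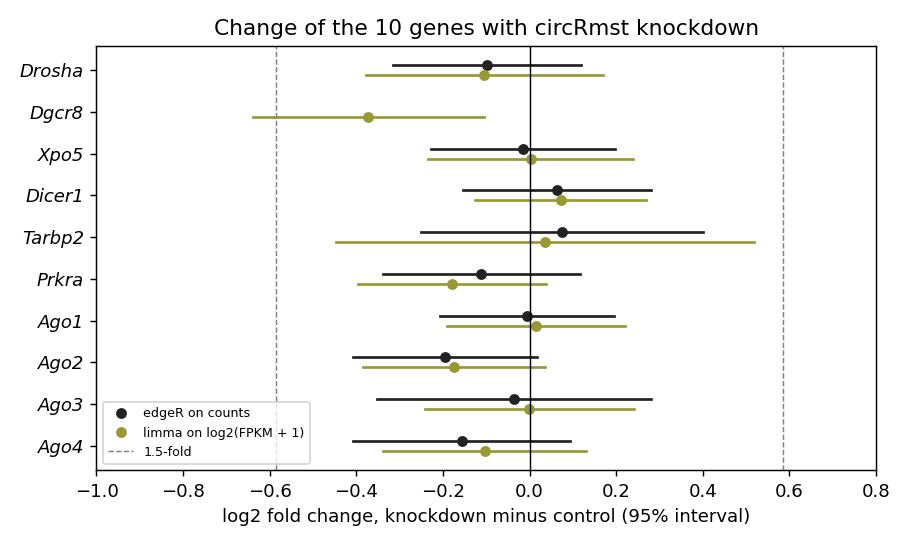
Log2 fold change of each gene (knockdown minus control, x axis) with its 95% interval, from edgeR on counts in black and from limma on log2(FPKM + 1) in olive; dashed lines mark a 1.5-fold change. All 9 black intervals cross 0, and Dgcr8 has no black interval because its counts are 0 in every library.

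The 10 genes were expressed at moderate levels that spanned less than an order of magnitude. Levels are compared between genes in FPKM (fragments per kilobase, scaled to each library), since counts grow with transcript length. Drosha was highest, at 19.7 ± 1.93 FPKM (SD over the 6 libraries), followed by Prkra at 15.9 ± 1.47. The next 5 lay close together. They were Ago1 at 12.6 ± 0.693, Xpo5 at 11.05 ± 0.868, Dicer1 at 10.2 ± 0.612, Ago2 at 9.59 ± 0.964 and Tarbp2 at 8.60 ± 1.66 FPKM. Dgcr8, at 4.84 ± 0.944 FPKM for its entry on the chromosome, came next, and the lowest were Ago4 at 3.46 ± 0.356 and Ago3 at 2.50 ± 0.269 FPKM.

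Not every step of this order exceeded the spread of the libraries. Neighbours had ranges that did not overlap at 3 of the 9 steps, namely Prkra over Ago1, Tarbp2 over Dgcr8 and Ago4 over Ago3. Dgcr8 is listed 3 times, and its entries, whose reads may be shared, summed to 10.8 to 18.3 FPKM. Its place in the order thus holds for the entry on the chromosome alone. Drosha lay above Prkra, Ago1 above Xpo5 and Dgcr8 above Ago4 in 6 of 6 libraries, although the ranges overlapped. Xpo5 over Dicer1, Dicer1 over Ago2 and Ago2 over Tarbp2 each held in only 3 of 6 libraries, so these neighbours could not be put in order, although Xpo5 lay above Tarbp2, which is not its neighbour, in 6 of 6.

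**Figure D2:**
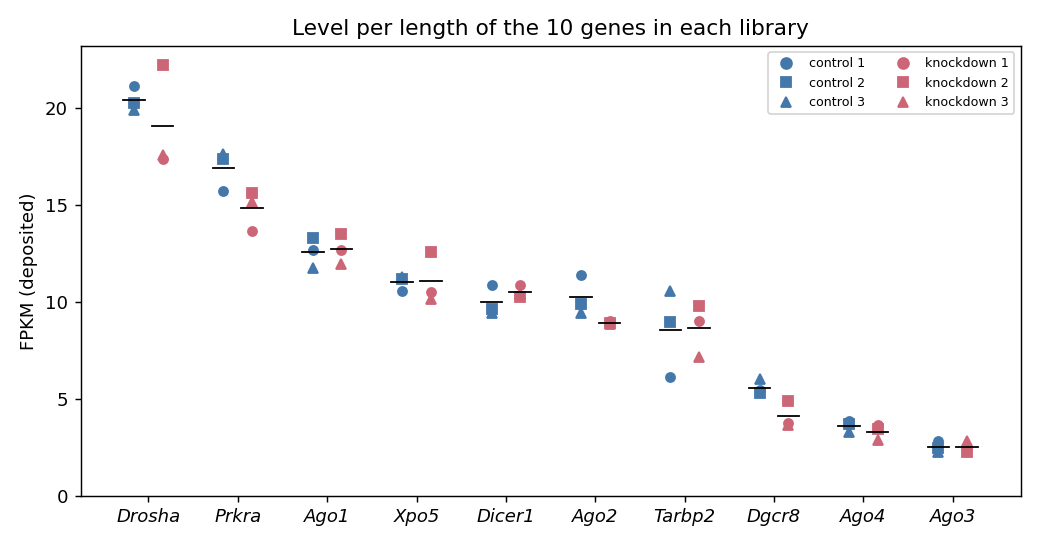
FPKM of each of the 10 genes (y axis) in the 3 control libraries (blue) and the 3 knockdown libraries (red), with symbols for the replicate number and bars for the group means, ordered by the mean of all 6. Drosha lies highest at 17.4 to 22.2 FPKM and Ago3 lowest at 2.23 to 2.84 FPKM. Dgcr8 is shown by its entry on the chromosome alone.

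Drosha, the nuclease of the Microprocessor, lies on chromosome 15 from 12824804 to 12935291 (GRCm38). The libraries gave 202, 195 and 195 CPM in control replicates 1, 2 and 3 against 169, 205 and 179 CPM in knockdown replicates 1, 2 and 3. The control libraries were tightly grouped, while the knockdown libraries spread to both sides of them. The log2 fold change was -0.10 ± 0.10 (SE), with an interval from -0.32 to 0.12 and an adjusted p of 1.00 in edgeR. On average it stood at 197 ± 4.01 CPM in control libraries and 184 ± 18.5 CPM after knockdown (SD, n = 3 each).

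Dgcr8, the RNA-binding partner of Drosha, lies on chromosome 16 from 18253948 to 18289251 (GRCm38) and is a special case in these tables. It is listed 3 times, at its place on the chromosome and again on 2 alternate sequences of the same region, and all 3 entries have 0 counts in all 6 libraries. The count is no sign of absent expression, because the deposited FPKM values of the entry on the chromosome were 5.45, 5.27 and 6.01 for control replicates 1, 2 and 3 against 3.77, 4.87 and 3.66 for knockdown replicates 1, 2 and 3. Of 1129 coding genes that likewise have entries on alternate sequences, 615 (54.5%) had 0 counts in every library. No source used here states how reads that match several places were counted.

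The Dgcr8 transcript carries microRNA hairpins of its own, and the Microprocessor is known to cut them and so to lower Dgcr8 messenger RNA. The mature arms of these hairpins, from RefSeq on GRCm38.p6, are shown because they tie this gene to the activity of its own complex. Capitals mark the seed, bases 2 to 8, which pairs with targets.
mmu-miR-1306-5p: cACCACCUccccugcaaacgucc
mmu-miR-1306-3p: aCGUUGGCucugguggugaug
mmu-miR-3618-5p: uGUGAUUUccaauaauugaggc
mmu-miR-3618-3p: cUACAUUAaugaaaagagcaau
No seed is shared among the 4. The arms of miR-1306 lie at chr16:18284288-18284310 and chr16:18284248-18284268 on the minus strand, inside the coding sequence of 2 annotated Dgcr8 transcripts in GENCODE. Those of miR-3618 lie at chr16:18284602-18284623 and chr16:18284562-18284583, inside an untranslated part of 2 transcripts. The hairpin entries Mir1306 and Gm24572 have 0 counts in all libraries, as Dgcr8 does, so these data do not show how much of the transcript was cut.

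In the FPKM values, Dgcr8 was lower in every knockdown library than in any control library. Control libraries averaged 5.58 ± 0.383 FPKM and knockdown libraries 4.10 ± 0.670 FPKM (SD, n = 3 each). Limma on log2(FPKM + 1) gave a difference of -0.37 ± 0.11 (SE), with an interval from -0.64 to -0.11, an unadjusted p of 0.0138 and an adjusted p of 1.00 over 14685 genes. In that fit 0% of genes passed the adjusted threshold and 4.32% had an unadjusted p under 0.05. Knockdown libraries lay wholly below control libraries in 4.3% of these genes. The entries on alternate sequences showed the same order, at 6.70 ± 0.743 against 4.46 ± 0.919 FPKM and at 4.37 ± 0.380 against 3.38 ± 0.367 FPKM, but they are entries of 1 gene whose reads may be shared, so they are not counted as separate measurements.

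Lower FPKM values after knockdown were common among genes that share this listing. After the Dgcr8 values were seen, it was set beside 188 other coding genes with entries on alternate sequences, 0 counts and a mean of at least 1 FPKM. Their median log2 difference was -0.34, with 168 (89.4%) below 0, and 85 (45.2%) were as low as Dgcr8 or lower. Their knockdown libraries lay wholly below the controls in 25% of cases. Among 11254 coding genes with a single entry the median was 0.0017, and 2.13% had wholly lower knockdown libraries.

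Library by library, Dgcr8 followed that set. Its deviation from its own mean was 0.16, 0.12 and 0.28 on the log2 scale for control replicates 1, 2 and 3, where the set's median was 0.05, 0.09 and 0.32. It was -0.28, 0.02 and -0.31 in knockdown replicates 1, 2 and 3, where the median was -0.25, 0.09 and -0.28. Measured against the set's median in each library, the groups overlapped, and the difference was -0.07. An exact permutation test of this difference gave p = 0.3, where 3 against 3 libraries cannot give less than 0.1. The Dgcr8 deviation by itself, whose groups lay apart, got 0.1 in the same test. It could thus not reach 0.05 with any values, and nothing is concluded from it. The part of this shared course in the Dgcr8 values was not tested.

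**Figure D3:**
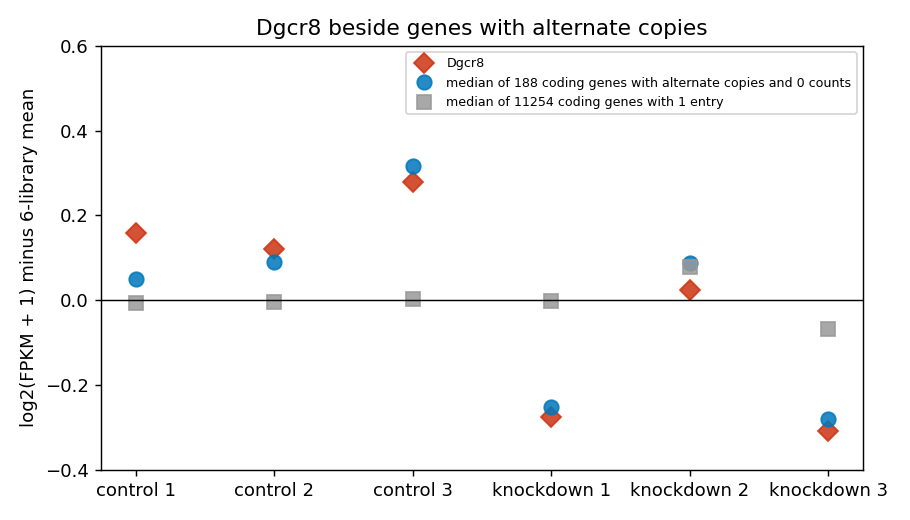
Deviation of log2(FPKM + 1) from the 6-library mean (y axis) in each library for Dgcr8 (red diamonds), for the median of 188 other coding genes with alternate copies and 0 counts (blue circles) and for the median of 11254 coding genes with 1 entry (grey squares). Dgcr8 and the blue median are both lowest in knockdown replicates 1 and 3 and highest in control replicate 3.

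Xpo5, whose product exports hairpins from the nucleus, lies on chromosome 17 from 46202811 to 46243598 (GRCm38). It was at 114, 121 and 123 CPM in control replicates 1, 2 and 3 and at 112, 130 and 113 CPM in knockdown replicates 1, 2 and 3. The knockdown libraries bracketed the controls. Its log2 fold change was -0.015 ± 0.10 (SE), with an interval from -0.23 to 0.20, and its sign turned with the processing. One microRNA hairpin, Mir693, lies inside the Xpo5 gene but in no exon that GENCODE annotates for it, and had 3 counts over all libraries together.

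Dicer1, the nuclease of the cytoplasmic step, lies on chromosome 12 from 104687740 to 104751968 (GRCm38). Its level was 207, 182 and 180 CPM in control replicates 1, 2 and 3 against 206, 184 and 205 CPM in knockdown replicates 1, 2 and 3. Both groups held high and low libraries, and each spanned nearly the same range. EdgeR gave it 0.06 ± 0.10 (SE), with an interval from -0.15 to 0.28. The genes with the most similar course over the 6 libraries, among 10269 others of at least 10 CPM, were Ggnbp2 (Pearson r = 0.990), Tspan18 (r = 0.987) and Naa15, a subunit gene of an N-terminal acetyltransferase (r = 0.987). These correlations are a description over 6 libraries that share depth and scaling.

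The genes of Dicer's binding partners gave no common direction. Tarbp2, on chromosome 15 from 102516077 to 102523676 (GRCm38), was at 20.0, 29.9 and 26.8 CPM in control replicates 1, 2 and 3 and at 28.3, 27.6 and 24.8 CPM in knockdown replicates 1, 2 and 3. Control replicate 1 was the lowest of all 6 libraries. The fold change was 0.08 ± 0.15 (SE) on the log2 scale with all libraries and -0.07 without control replicate 1. Tarbp2 overlaps the neighbouring gene Map3k12, and their reads may not be kept apart, because no source used here states the strand setting of the counting.

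Prkra, on chromosome 2 from 76609215 to 76648220 (GRCm38), encodes Pact, which is also known as an activator of the kinase PKR. It was at 49.3, 54.4 and 55.9 CPM in control replicates 1, 2 and 3 and at 45.6, 50.6 and 51.6 CPM in knockdown replicates 1, 2 and 3. The knockdown libraries lay lower on average, but the groups overlapped, because control replicate 1 was below knockdown replicates 2 and 3. EdgeR gave -0.11 ± 0.10 (SE), with an interval from -0.34 to 0.12. In FPKM the groups did not overlap, at 16.9 ± 1.05 in control libraries and 14.8 ± 1.03 after knockdown (SD, n = 3 each), and limma's adjusted p was 1.00. Knockdown libraries lay wholly below the controls in FPKM in 3 of the 10 genes (Dgcr8, Prkra and Ago2) and in 4.3% of all genes.

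The Argonaute genes differ in what their proteins can do. Ago2 is the member best known to cut a perfectly paired target, which is how a short hairpin lowers its target RNA, while all 4 can repress targets through partner proteins. Ago1, Ago3 and Ago4 lie in a row on chromosome 4, from 126326994, where Ago3 starts, to 126533586, where Ago4 ends, and Ago2 lies on chromosome 15 from 73101625 to 73184947 (GRCm38).

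Ago2 had the smallest p of the 9 genes tested. Its level was 179, 160 and 150 CPM in control replicates 1, 2 and 3 against 143, 138 and 146 CPM in knockdown replicates 1, 2 and 3. Every knockdown library lay below every control library, and control replicate 1 was the highest of all. Knockdown libraries lay wholly below the controls in 2.92% of all genes tested and in 1 of the 9 genes here. Control libraries averaged 163 ± 14.7 CPM and knockdown libraries 142 ± 4.12 CPM (SD, n = 3 each), a log2 difference of -0.19 ± 0.10 (SE) with an interval from -0.41 to 0.02. The unadjusted p was 0.0687 and the adjusted p was 1.00 in edgeR, so this difference did not pass. Without control replicate 1 it was -0.12. Ago2 overlaps Gm31725, so its counts carry the same limit on strand as those of Tarbp2. FPKM values gave the same order of the groups, at 11.4, 9.89 and 9.44 against 8.99, 8.94 and 8.88.

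Of 11 lists of cell type markers, the summed level of 1, microglia, did not overlap between the groups. Among single genes, 2.92% of all tested lay wholly lower after knockdown, and no such share is at hand for summed lists. The part of microglia in the Ago2 values was not tested. For 6 microglia genes the summed level ran from 13.2 to 15.6 CPM in control libraries and from 11.9 to 12.3 CPM after knockdown. Aif1 was at 0 counts, and Cx3cr1, P2ry12 and Tmem119 were the lowest of the others, so few genes carry this sum. Of the 4 tested genes 3 lay below the control. Aif1 has 4 entries in the tables, as the genes with alternate copies do. Summed over 7 genes of the oligodendrocyte lineage, the level was 279 to 442 CPM against 270 to 348 CPM, with 7 of 7 below the control and overlapping groups. For 4 genes of dividing cells it was 150 to 251 CPM against 150 to 172 CPM, with 4 of 4 below and overlapping groups. Of the dopamine neuron markers 8 of 10 lay below. GABAergic genes and red blood cell genes went the other way, with 0 of 3 below in each, and the red blood cell genes summed to 8.81 to 18.5 CPM against 12.7 to 26.9 CPM. In the other lists, those below were 0 of 1 glutamatergic gene tested, 1 of 3 of endothelium and 1 of 4 of fibroblasts and mural cells. They were 3 of 5 for neurons and 3 of 6 for astrocytes and radial glia. Over all genes 51.9% lay below. In such mixed cultures, fewer cells of a type and less RNA per cell cannot be told apart.

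Genes with a course much like that of Ago2 over the 6 libraries included Rbm5 and Papola. The splicing regulator gene Rbm5 had r = 0.977, and Papola, which encodes a poly(A) polymerase, had r = 0.971. Both were highest in control replicate 1, with Rbm5 at 180 CPM there and at 148 to 156 CPM in the knockdown libraries.

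The other Argonaute genes overlapped between the groups. Ago1 was at 176, 187 and 163 CPM in control replicates 1, 2 and 3 and at 174, 178 and 173 CPM in knockdown replicates 1, 2 and 3. Its log2 fold change of -0.0051 ± 0.09 (SE) had an interval from -0.21 to 0.20, and the sign turned with the scaling. Ago3 was at 74.2, 59.3 and 59.5 CPM for the controls and at 61.0, 52.2 and 74.95 CPM after knockdown. One library of each group stood above the others, and the log2 fold change was -0.036 ± 0.14.

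Ago4 was at 48.5, 43.5 and 42.4 CPM in control replicates 1, 2 and 3 and at 44.8, 38.7 and 37.1 CPM in knockdown replicates 1, 2 and 3. Knockdown replicate 1 lay among the controls and the other knockdown libraries below them. The difference was -0.16 ± 0.11 (SE) on the log2 scale, with an interval from -0.41 to 0.09 and an adjusted p of 1.00 in edgeR.

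Within the Argonaute messenger RNA of a library, Ago1 and Ago2 made up most of the total. The shares are of the summed FPKM of the 4 genes, so they do not depend on the scaling of the library. Ago1 took 41.2%, 45.3% and 44.0% in control replicates 1, 2 and 3 against 45.8%, 48.0% and 45.1% in knockdown replicates 1, 2 and 3. Ago2 took 37.1%, 33.7% and 35.3% of control totals and 32.4%, 31.8% and 33.5% of knockdown totals. The knockdown libraries lay below the controls for Ago2, by a margin smaller than the spread within the control, and the groups overlapped for Ago1. The Ago2 share uses the FPKM values given above, so it is not a second measurement. In FPKM 4.3% of all genes were wholly lower after knockdown, and no such figure is at hand for shares among 4 genes.

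Ago4 took 12.5% ± 0.165 of the control total and 12.02% ± 1.19 of the knockdown total, and Ago3 took 8.62% ± 0.483 and 9.13% ± 1.39 (SD, n = 3 each). The sum of the 4 genes averaged 28.9 ± 2.03 FPKM in control libraries and 27.5 ± 0.818 FPKM after knockdown. These shares describe the libraries and were not tested.

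**Figure D4:**
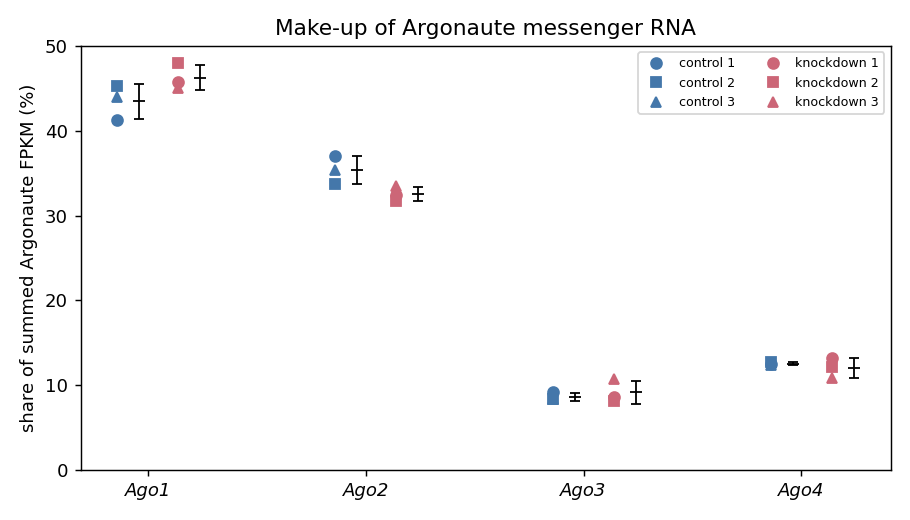
Share of each Argonaute gene in the summed FPKM of the 4 (y axis, percent) in each control (blue) and knockdown (red) library, with black bars for the mean and SD of the group. Ago1 takes 41.2% to 48.0% and Ago2 31.8% to 37.1%. The knockdown libraries lie below the controls for Ago2, whose FPKM values were wholly lower too, as in 4.3% of all genes.

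Other genes of the pathway were read from 5 lists, and 0 of their 69 tested members passed the adjusted threshold in edgeR. The first holds factors that help the Microprocessor, edit its substrates, or load and assist Argonaute, such as the helicases Ddx5 and Ddx17 and the chaperones Hsp90aa1 and Hspa8. Of 23 genes 22 were tested, 10 above and 12 below the controls, and their median stood at -0.0097. Hnrnpa1, whose protein binds some primary microRNAs, had the smallest p, at 122 ± 15.0 CPM in control libraries and 103 ± 12.9 CPM after knockdown (SD, n = 3 each) and -0.25 ± 0.12 (SE). In FPKM its difference was -0.53, with knockdown libraries at 50.5 to 63.1 and controls at 69.9 to 96.4, while its groups overlapped in CPM. In FPKM 4.3% of all genes were wholly lower after knockdown. On counts the difference of Hnrnpa1 was -0.14 without control replicate 1 and -0.16 without knockdown replicate 2. Tsn, which encodes translin, a subunit of the nuclease that clears cut passenger strands, had 0.18 ± 0.10, or 0.088 without knockdown replicate 1. All 22 intervals lay within a 1.5-fold change.

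The second list holds 24 effectors that act after Argonaute, namely the GW182 genes Tnrc6a, Tnrc6b and Tnrc6c and genes of deadenylation and decapping. All were tested, 12 above and 12 below the controls, around a median of 0.00033 and all 24 intervals within a 1.5-fold change. Cnot3, a subunit gene of the CCR4-NOT deadenylase, was at 46.9, 37.1 and 37.2 CPM in control replicates 1, 2 and 3 and at 35.2, 36.6 and 31.5 CPM in knockdown replicates 1, 2 and 3. Its groups did not overlap, control replicate 1 stood well above the rest, and the log2 fold change was -0.23 ± 0.13 (SE), or -0.11 without that library. Of the 24 genes 1, Cnot3, was wholly lower after knockdown, against 2.92% of all genes tested. Cnot2, of the same complex, had -0.14 ± 0.11, from -0.24 without knockdown replicate 3 to -0.070 without knockdown replicate 1.

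Genes of microRNA turnover and of the Lin28 pathway formed the third list, with 11 of 11 tested, 7 above and 4 below the controls, around a median of 0.03. Lin28a and Lin28b block the maturation of let-7, and of the 2 Lin28b was the more abundant, at 18.3 to 30.7 CPM against 0.293 to 0.667 CPM for Lin28a over the 6 libraries. In FPKM, which allows for length, they were at 1.64 for Lin28b and 0.0933 for Lin28a on average. The exonuclease gene Xrn2 had the smallest p of this list with -0.10 ± 0.10 (SE), and Trim71, a partner of the let-7 pathway, had 0.34 ± 0.42 at 0.396 to 1.05 CPM. Xrn2 had -0.0053 without control replicate 1 and -0.066 without knockdown replicate 2. Trim71 had 0.87 without control replicate 2, 0.19 without control replicate 1, 0.12 without control replicate 3 and 0.15 without knockdown replicate 3. Of the 11 intervals 9 lay inside a 1.5-fold change.

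Piwi genes, which act with germline small RNAs, were at the limit of detection. Piwil1 had an unadjusted p of 0.0425 and an adjusted p of 1.00 in edgeR, where 0 of the 2 tested genes passed, 1 lay above and 1 below the control, and the median was 0.41. Its level averaged 0.200 ± 0.0502 CPM in control libraries and 0.413 ± 0.0795 CPM after knockdown (SD, n = 3 each), and the groups did not overlap. That level rests on 8, 6 and 7 counts in control libraries and 14, 16 and 19 after knockdown. The filter on low counts asks for enough counts in 3 libraries, and the 3 with the most were the knockdown libraries. Piwil1 may thus have entered the test through the group where it was high. In edgeR, 1.1% of all genes had an unadjusted p under 0.05. No share is at hand for genes wholly higher after knockdown. The p of Piwil1 and the order of its groups are given as a description only. Piwil2 had -0.23 ± 0.32 (SE), and Piwil4 had too few counts to be tested. Neither interval (0 of 2) lay inside a 1.5-fold change.

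Among host transcripts of microRNAs, the substrates of the Microprocessor, 0 passed the test. Of 18 host genes 10 could be tested, 8 below and 2 above the controls, around a median of -0.15, where 51.9% of all genes lay below, and 7 of the 10 intervals stayed inside a 1.5-fold change. The values ran from -0.46 to 0.16, with Mir17hg at -0.0025, and the list as a whole was not tested. Mir124a-1hg, a host of miR-124, a microRNA abundant in neurons, was at 67.9, 79.5 and 70.3 CPM in control replicates 1, 2 and 3 and at 65.0, 56.3 and 66.0 CPM in knockdown replicates 1, 2 and 3. Its groups did not overlap, with -0.22 ± 0.11 (SE), an unadjusted p of 0.0675 and an adjusted p of 1.00 in edgeR, and it had -0.13 without control replicate 2. Mir124-2hg, which hosts another copy of the same microRNA, had -0.16 ± 0.17, with overlapping groups. The knockdown was wholly below the control in 2 of the 10 hosts, Mir124a-1hg and Dleu2, and in 2.92% of all genes tested. Dleu2 had the lowest value of the list, -0.46 ± 0.26 (SE), on average levels of 2.04 CPM in control libraries and 1.47 CPM after knockdown.

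Mir670hg, on chromosome 2, averaged 17.7 ± 2.79 CPM in control libraries and 14.6 ± 1.31 CPM after knockdown (SD, n = 3 each), with -0.28 ± 0.14 (SE), or -0.16 without control replicate 2. Mir9-3hg, a host of miR-9, which acts in neural progenitors, had -0.10 ± 0.15. The mature microRNAs inside both host genes, from RefSeq on GRCm38.p6, are shown with the seed in capitals, since they are what a change of these transcripts could feed.
mmu-miR-670-5p: aUCCCUGAguguauguggugaa
mmu-miR-670-3p: uUUCCUCAuauccauucaggagugu
mmu-miR-9-5p: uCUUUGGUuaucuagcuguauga
mmu-miR-9-3p: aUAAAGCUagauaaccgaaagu
They lie at chr2:94261358-94261379 and chr2:94261316-94261340 on the minus strand and at chr7:79505279-79505301 and chr7:79505318-79505339 on the plus strand, and no seed is shared among them. A host transcript is a precursor, and its level does not give the level of the mature microRNA.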

How the data were processed

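RNA depleted of ribosomal RNA was sequenced with paired reads of 150 bases in 3 control and 3 knockdown libraries, from 2 to 3 wells per condition and 3 independent cultures, per the labels' protocols. The deposited counts are whole numbers per gene, 1 table per library, on GRCm38 (mm10) per the submitters' processing notes. No source used here names the program that aligned or counted the reads, or whether strand was used. The FPKM values the authors deposited carry Cufflinks columns, per the file headers, and version 2.2.1 of Cufflinks is listed in the submitters' processing notes. Of 39731 FPKM entries on chromosomes, 39708 have the position of the RefSeq table of GRCm38.p6.

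Counts were tested with edgeR 4.0.16 (R 4.3.3): filterByExpr, TMM, the group alone in the design, the quasi-likelihood test, and Benjamini-Hochberg adjustment over all genes. Dgcr8, with 0 counts, was read from FPKM with limma 3.58.1 on log2(FPKM + 1) at a mean of at least 0.5 FPKM, a test planned as an alternative. Alternatives were DESeq2 1.42.0, limma voom, other scalings, filters and pseudocounts, the replicate block and leaving out each library. The scripts were tested on simulated data. Within a group, any pair of libraries differed by more than sampling noise (chi-square per degree of freedom from 13.8 to 99.6).

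The members and gene lists were chosen with earlier results of these data known. Named are all members, the 2 genes with the smallest p of each list, Rmst, and the 3 genes most correlated with Ago2 and with Dicer1. Of these, 1 is not reported here. Further names (Map3k12, Mir17hg, Mir124-2hg, Mir9-3hg, Dleu2, Lin28a, Lin28b and the neighbours of Dgcr8) were added after their values were seen. The lowest microglia markers were likewise named after their values were seen.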

Additional observations from a re-analysis of the deposited data

How the results depend on the processing

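None of the 10 genes passed an adjusted p under 0.05 under any alternative run. Over all genes, 11 were called without the filter on low counts and 1 with DESeq2, against 0 in the other fits on counts, and limma on FPKM with 1 library left out called 2 to 16. Without control replicate 3, Ago2 had an unadjusted p under 0.05 in edgeR, as did 198 of all 17786 genes in that fit. In limma on FPKM, Dgcr8 had an unadjusted p under 0.05 in every fit run, and Drosha had one without knockdown replicate 2. With 1 library left out, so did 279 of 14629 genes (without control replicate 3) up to 1048 of 14666 (without knockdown replicate 2). These fits reuse the same libraries, so they do not count as repeated support. Drosha, Dicer1, Prkra, Ago2 and Ago4 kept their sign throughout, with Ago2 from -0.24 to -0.12. The median log2 fold change of the members ranged from -0.088 to -0.017 with 1 library left out. Xpo5 turned positive in FPKM (0.0025, or 0.0023 with a pseudocount of 0.1, and 0.0025 with no filter) and ran from -0.088 to 0.027 with 1 library left out. Ago1 turned positive with library totals (0.0021), without the filter (0.0020) and in FPKM (0.015, or 0.016 with a pseudocount of 0.1, and 0.015 with no filter), and ran from -0.045 to 0.055 with 1 library left out. Tarbp2 ran from -0.072 to 0.22 and Ago3 from -0.17 to 0.083 with 1 library left out. The cause of these turns was not tested.

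With the replicate block, 0 genes were called, as without it, and 258 had an unadjusted p under 0.05 against 191. Ago2 had -0.19 and Dgcr8 in FPKM had -0.37 with the block. Deviations of libraries with the same number correlated at 0.32, 0.35 and 0.05 for numbers 1, 2 and 3. Those of control and knockdown libraries with different numbers correlated at -0.36 to 0.10, the highest for control replicate 3 with knockdown replicate 2. The labels do not say that a number marks 1 culture, so the block was run as an alternative only. Whether the numbers pair the libraries is not known. Dgcr8 ranged from -0.48 to -0.31 in FPKM with 1 library left out (lowest adjusted p = 0.293).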

Other observations

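Of 11 genes read beside Dgcr8, all have entries on alternate sequences and 10 had at most 2 counts over all libraries, while Arvcf had 1612. They were chosen by position after the Dgcr8 values were seen, and in all 11 the groups overlapped in FPKM, with an adjusted p of 1.00 in limma. Trmt2a, a transfer RNA methyltransferase gene that overlaps Dgcr8, was at 5.62, 7.14 and 8.11 FPKM in control replicates 1, 2 and 3 and at 4.15, 5.70 and 3.96 FPKM in knockdown replicates 1, 2 and 3. Mrpl40, a gene of the mitochondrial ribosome, was at 14.8, 11.7 and 21.0 FPKM in the control and at 6.59, 12.6 and 6.71 FPKM in the knockdown. In both genes knockdown replicates 1 and 3 were the lowest libraries. They also had the lowest log2 differences of the 11, at -0.51 for Trmt2a and -0.83 for Mrpl40. Ranbp1, at -0.16, had 16.2 FPKM in knockdown replicate 1, above 12.3 and 14.2 FPKM in control replicates 2 and 3. Zdhhc8 was at -0.07.

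The long non-coding RNA genes Meg3 and Rian, of the imprinted Dlk1 to Dio3 region with its many microRNAs, also have 2 entries each and could not be tested on counts. Meg3 had 44 counts over all libraries but 128, 103 and 147 FPKM in control replicates 1, 2 and 3 and 82.7, 73.3 and 114 FPKM in knockdown replicates 1, 2 and 3. Rian had 3 counts and 35.1, 38.6 and 44.9 FPKM in the control and 31.2, 38.6 and 39.9 FPKM in the knockdown. Limma on log2(FPKM + 1) gave -0.49 ± 0.21 (SE) for Meg3 and -0.11 ± 0.14 for Rian. Both had overlapping groups, and neither passed an adjusted p under 0.05. As given above, lower FPKM values after knockdown were common among coding genes with entries on alternate sequences and 0 counts.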
